A study of Drosophila melanogaster with 4 samples.

Results

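Complex I of the respiratory chain, the NADH:ubiquinone oxidoreductase of the inner mitochondrial membrane, was examined in larval fat bodies through the genes that encode its subunits. Genes were taken when the platform's probe-to-gene table gave a row a single gene symbol that starts with ND-, the FlyBase prefix for nuclear-encoded subunits of this complex. This gave 33 genes of the 13402 genes tested. A further 7 genes with this prefix in the RefSeq gene table, namely ND-23, ND-24, ND-30, ND-49, ND-49L, ND-AGGG and ND-B15, were not on such a row and were not analysed here. No member had more than 1 such row.

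Larvae of the Drosophila melanogaster strain w1118 had eaten a semi-purified diet from the egg stage for 5 days. In the PFJ group, palm fruit juice was mixed into this diet (4 ml, a dose the labels put at 19000 mg per kg of diet and 0.86 mg per kcal in gallic acid units). The control group ate the semi-purified diet alone. Each group had 2 single-colour Affymetrix arrays, and each array held total RNA pooled from the fat bodies of 10 larvae, whose sex the labels do not give. Values are RMA log2 intensities, a scale on which a difference of 1 is a doubling, and since rows differ in their probes, levels are compared only between arrays and never between genes.

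In complex I, electrons from NADH enter a peripheral arm that reaches into the matrix. They pass through a flavin and a chain of iron-sulfur clusters to ubiquinone, and the energy released drives protons across a membrane arm. A conserved core does this work, with its membrane part encoded in mitochondrial DNA, and a shell of supernumerary subunits is needed for assembly and stability. In the fat body, the insect organ that combines roles of liver and adipose tissue, complex I reoxidises NADH from sugar and fatty acid breakdown. Fly genomes also carry duplicated copies of several respiratory chain genes, which are known for expression biased towards the testis.

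The 4 fat body markers measured, of 6 listed, were Lsp2, Fbp1, Fbp2 and apolpp, and they read between 9.99 and 12.32 on every array. None of the 4 overlapped between diets, and none passed the adjusted test. Fbp1, Fbp2 and apolpp were higher with PFJ, by 0.12 (SE 0.16), 0.38 (SE 0.18) and 0.49 (SE 0.21). Lsp2 was lower, at a difference of -0.07 (SE 0.16). The part of these differences in the complex I values was not tested. Markers of testis, muscle and midgut differed between arrays of the same diet. The mean of 19 testis genes was 4.86 and 3.92 in PFJ replicates 1 and 2, against 5.12 and 2.67 in control replicates 1 and 2. The mean of the 13 muscle genes measured, of 17 listed, was 6.46 and 7.13 with PFJ, against 6.80 and 5.87 in controls, and that of 12 midgut genes was 6.78 and 7.64 with PFJ, against 5.95 and 7.41 in controls. Control replicate 2 had the lowest mean for testis and muscle, and control replicate 1 the lowest for midgut. The mean of 8 hemocyte genes was 4.23 and 4.50 with PFJ, against 3.96 and 4.33 in controls, and that of 6 salivary gland genes was 9.61 and 9.62 with PFJ, against 9.03 and 9.99 in controls. Of the hemocyte genes, Hml, eater, PPO1 and PPO2 had both PFJ arrays above both control arrays. Hml, PPO1 and PPO2 had unadjusted p-values of 0.0239, 0.0123 and 0.0365 by limma, with an adjusted p of 1 each. NimC1, crq, Pxn and lz overlapped between diets, with differences of -0.67, -0.67, -0.01 and 0.08. The 8 hemocyte genes thus had 5 differences above 0 and 3 below, and did not share a direction. The part of hemocyte RNA in the complex I values was not tested. No marker is at 0 on this scale, and no detection call was made.

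No complex I gene passed the test between diets. limma's moderated test with Benjamini-Hochberg adjustment over the 13402 genes called 0 members, with an adjusted p of 1 for each of them, and it called 0% of all genes. At an unadjusted p under 0.05, 1 member was higher with PFJ and 0 were lower, against 1.74% and 1.04% of all genes. The differences leaned upwards all the same. Of the 33 members, 27 had a difference above 0 (81.8%, against 51.9% of all genes, and 69.7% against 44.1% after centring each array on its median), and the median difference was 0.19 on the log2 scale, against 0.01 over all genes. The PFJ arrays were both higher than either control array for 8 members (24.2%, against 15.5% of all genes) and both lower for 1 (3.03%, against 13.1%). With 2 arrays against 2, an exact two-sided permutation test of a single gene cannot give a p under 0.333.

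The lean was smaller without control replicate 2 and without PFJ replicate 2. Control replicate 2 was the lowest of the 4 for 19 of the 33 members (57.6%), against 29.0% of all genes. It had the highest value for 2 members (6.06%, against 30.3% of all genes). Its median over all genes was also the lowest, at 3.86, against 4.02 in control replicate 1 and 4.02 and 3.95 in PFJ replicates 1 and 2. Without control replicate 2 the median difference was 0.061, and 20 members were above 0 (60.6%, against 52.2% of all genes). Both PFJ arrays then lay above control replicate 1 for 11 members (33.3%, against 33.1% of all genes) and below it for 5 (15.2%, against 30.0%). Without PFJ replicate 2 the median was 0.16, and 21 members were above 0 (63.6%, against 54.7% of all genes). Without control replicate 1 the median was 0.29, with 28 members above 0 (84.8%, against 50.9% of all genes). No member differed by more than 1 on the log2 scale, and the standard errors ran from 0.16 to 0.47. The 95% interval included a doubling with PFJ for 7 members.

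**Figure D1:**
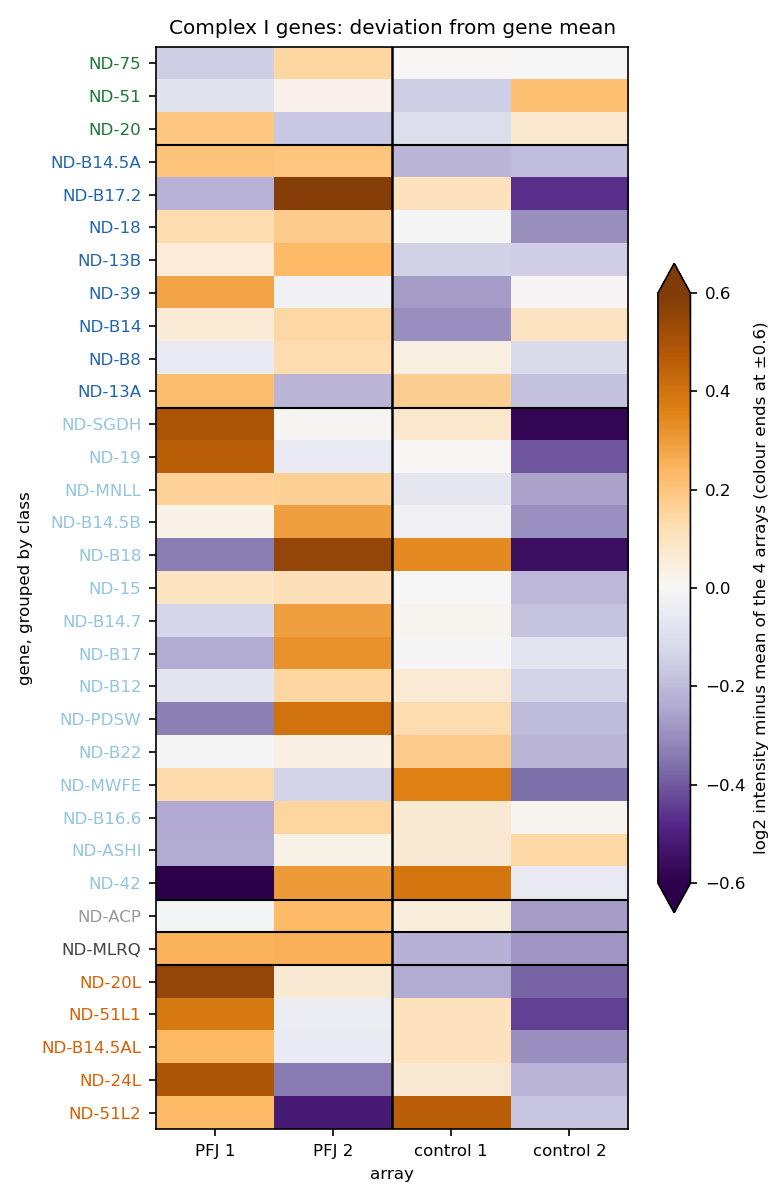
Each cell is the log2 intensity of a gene on an array minus the mean of its 4 arrays, with genes down the page by class and PFJ arrays to the left of control arrays. Control replicate 2 is the lowest array for 19 of the 33 genes, and PFJ replicate 2 is the highest for 17.

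Only 3 core subunits of the peripheral arm were measured, and they stood close to 0. The other core subunits of this arm, ND-23, ND-24, ND-30 and ND-49, were among the genes not analysed. ND-75, the counterpart of vertebrate NDUFS1 and the subunit that carries several of the iron-sulfur clusters, read 4.56 and 4.86 with PFJ, against 4.71 and 4.71 in controls. Its PFJ arrays lay on either side of the control arrays, and its difference was 0.00 (SE 0.19, 95% interval -0.52 to 0.52). ND-51 (NDUFV1), which binds NADH and the flavin, read 6.02 and 6.12 with PFJ, against 5.95 and 6.32 in controls. The control arrays enclosed the PFJ arrays, and the difference was -0.06 (SE 0.21). ND-20 (NDUFS7), which carries the iron-sulfur cluster next to the ubiquinone site, read 5.02 and 4.66 with PFJ, against 4.73 and 4.90 in controls. Here the PFJ arrays enclosed the control arrays, at a difference of 0.03 (SE 0.21). All 3 intervals included changes of about 0.5 in either direction.

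The 8 supernumerary subunits of the peripheral arm all had differences above 0, from 0.01 to 0.40, with a median of 0.27. The lowest was ND-13A (SE 0.25). Median centring lowers every difference alike and took ND-20 from 0.03 to -0.02, so ND-13A also falls below 0 there. ND-B14.5A (NDUFA7) had the closest replicates of any of them, at 6.67 and 6.66 with PFJ, against 6.26 and 6.27 in controls. Its groups were clearly apart, with a difference of 0.40 (SE 0.16, unadjusted p 0.0623 by limma). ND-18, the counterpart of NDUFS4, a subunit known for its part in joining the NADH-oxidising module to the rest of the enzyme, read 6.31 and 6.36 with PFJ, against 6.18 and 5.89 in controls. The groups did not overlap, though PFJ replicate 1 lay only a little above control replicate 1, and the difference was 0.31 (SE 0.19). ND-13B (NDUFA5) read 5.03 and 5.21 with PFJ, against 4.84 and 4.83 in controls, again without overlap, a difference of 0.28 (SE 0.17).

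Other subunits of this arm overlapped between diets. ND-39 (NDUFA9), a protein related to short-chain dehydrogenases that sits near the ubiquinone module, read 4.78 and 4.47 with PFJ, against 4.22 and 4.50 in controls. PFJ replicate 2 lay just under control replicate 2. ND-B17.2 (NDUFA12) spread widely within both diets, at 5.96 and 6.76 with PFJ, against 6.28 and 5.71 in controls, so its difference of 0.36 had an SE of 0.38. ND-B8 (NDUFA2), a small thioredoxin-like subunit, varied least over the 4 arrays of all members, at 2.57 and 2.76 with PFJ, against 2.67 and 2.51 in controls. Those arrays interleaved, at a difference of 0.08 (SE 0.18). The mean level of ND-B8 was under the 25th percentile of all genes, and the part of this in its small range was not tested.

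The 15 supernumerary subunits of the membrane arm were more mixed, with 11 differences above 0 and 4 below, from -0.33 to 0.50, and a median of 0.08. The difference between the arms was not tested. ND-MNLL (NDUFB1) read 5.23 and 5.23 with PFJ, against 5.00 and 4.81 in controls, a difference of 0.33 (SE 0.17). ND-B14.5B (NDUFC2) read 2.96 and 3.22 with PFJ, against 2.91 and 2.64 in controls, a difference of 0.32 (SE 0.21). ND-15, the counterpart of NDUFS5, a cysteine-rich subunit on the intermembrane side, read 4.39 and 4.41 with PFJ, against 4.29 and 4.09 in controls, a difference of 0.21 (SE 0.17). These were the 3 of 15 subunits of the membrane arm whose PFJ arrays both lay above both control arrays (20.0%, against 15.5% of all genes). In each, control replicate 2 was the lowest array. In the other direction, ND-ASHI (NDUFB8) was the only member whose PFJ arrays both lay below both control arrays (6.67% of this arm, against 13.1% of all genes). It read 3.25 and 3.51 with PFJ, against 3.55 and 3.62 in controls, a difference of -0.21 (SE 0.18).

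Several membrane-arm genes varied more within a diet than between diets. ND-SGDH (NDUFB5) read 5.61 and 5.12 with PFJ, against 5.19 and 4.53 in controls, a difference of 0.50 (SE 0.33). ND-19 (NDUFA8) read 5.36 and 4.85 with PFJ, against 4.91 and 4.50 in controls, a difference of 0.41 (SE 0.28). In these genes PFJ replicate 1 was highest and control replicate 2 lowest, with the other arrays level between them. ND-B18, the counterpart of NDUFB7, had the largest gap between control arrays of all members, at 5.07 and 5.96 with PFJ, against 5.75 and 4.85 in controls. ND-MWFE (NDUFA1) read 4.41 and 4.14 with PFJ, against 4.64 and 3.91 in controls, which left its difference at 0.00 (SE 0.32). ND-B12 (NDUFB3) stayed within a range of 0.28, at 2.57 and 2.80 with PFJ, against 2.72 and 2.52 in controls. Like ND-B8, it had a mean level under the 25th percentile of all genes.

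ND-MLRQ was the member with the smallest p. It read 5.88 and 5.88 with PFJ, against 5.40 and 5.34 in controls. The replicates of each diet were close and the groups apart, with a difference of 0.51 (SE 0.16, 95% interval 0.07 to 0.95), a 1.42-fold difference with an unadjusted p of 0.0319 and an adjusted p of 1 by limma. Its unadjusted p lay above 0.05 after median centring, with a variance trend, with either filter on dim genes and with the replicate number as a block (0.0542), and it was 0.0948 to 0.124 on leaving out each array, the highest without control replicate 2. Its vertebrate counterpart NDUFA4 was long listed with complex I and is now counted as a subunit of cytochrome c oxidase, so the ND- prefix does not settle its place. Without it the median difference of the members was 0.18.

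The remaining 9 members were ND-13A, ND-42, ND-ACP, ND-B14, ND-B14.7, ND-B16.6, ND-B17, ND-B22 and ND-PDSW. All of them overlapped between diets, with differences from -0.33 to 0.22 and unadjusted p-values from 0.357 to 0.976 by limma. The lower end belonged to ND-42 (NDUFA10), a nucleoside kinase-like subunit, whose PFJ arrays were 0.94 apart. The upper end belonged to ND-ACP, the mitochondrial acyl carrier protein, which also serves mitochondrial fatty acid synthesis. For 25 of the 33 members, the gap between the arrays of at least 1 diet was larger than the difference between diets, which was also so for 81.5% of all genes.

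**Figure D2:**
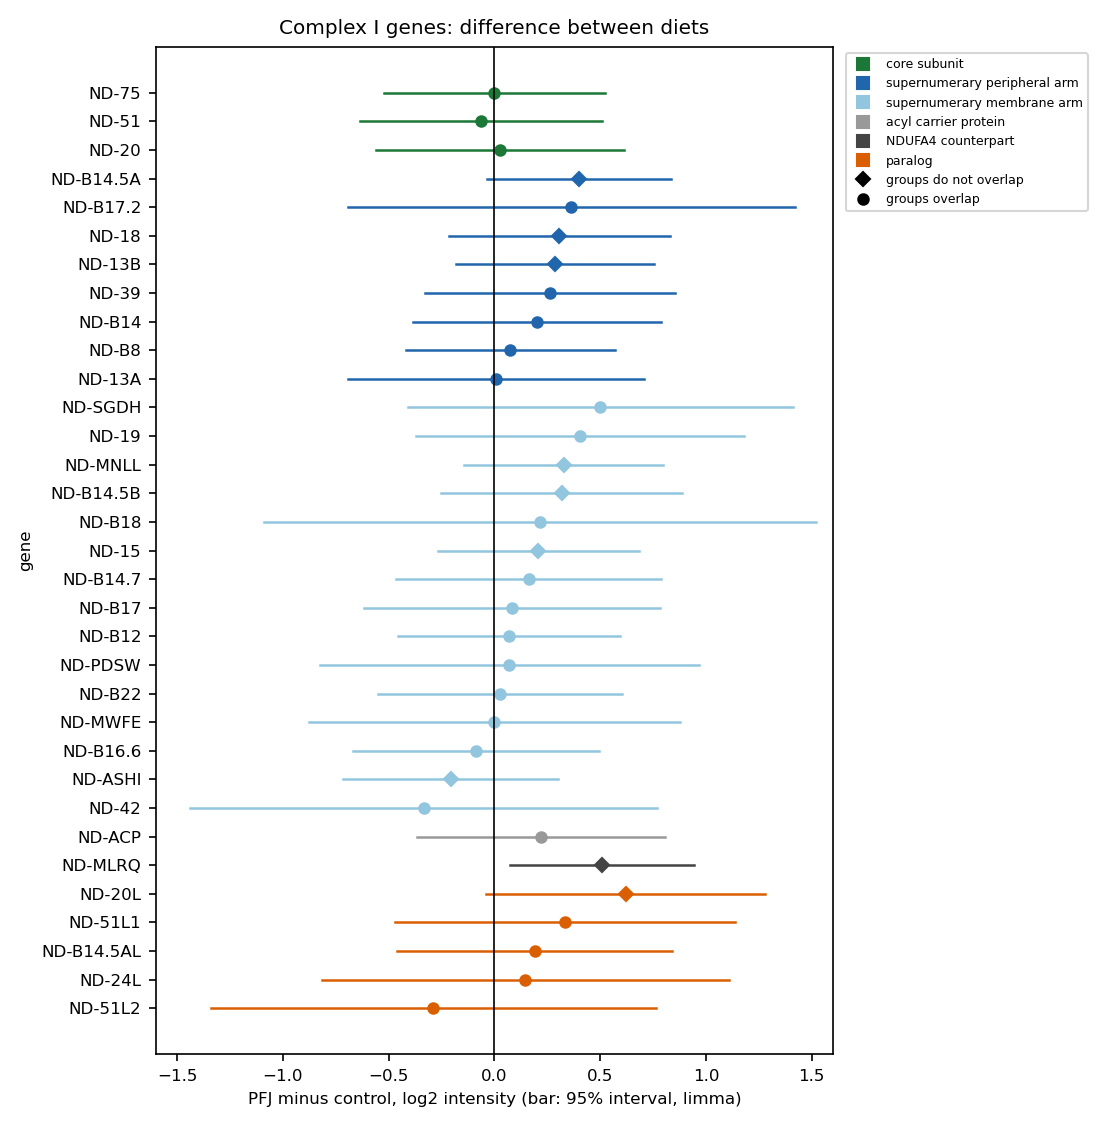
Points are the differences of PFJ minus control in log2 intensity for the 33 genes, coloured by class, and bars are 95% intervals from limma. Diamonds mark the 9 genes whose groups do not overlap, and 32 of the 33 intervals include 0.

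The 5 duplicated genes had differences from -0.29 to 0.62, with a median of 0.19. ND-20L, a copy of ND-20, read 4.59 and 4.10 with PFJ, against 3.80 and 3.65 in controls, and had the largest difference of any member, 0.62 (SE 0.24, unadjusted p 0.0592 by limma). That p was 0.0444 with the replicate number as a block and 0.0349 without PFJ replicate 2, and in both settings ND-20L was the 1 member under 0.05. Its PFJ arrays both lay above its control arrays, while those of ND-20 itself overlapped at a difference of 0.03. ND-51L1, a copy of ND-51, read 3.92 and 3.49 with PFJ, against 3.64 and 3.10 in controls, a difference of 0.33 (SE 0.29). ND-51L2, another copy of ND-51, read 3.43 and 2.68 with PFJ, against 3.66 and 3.03 in controls, a difference of -0.29 (SE 0.38). The copies of ND-51 thus had differences of opposite sign, and both 95% intervals included 0.

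ND-24L, a copy of the flavoprotein subunit gene ND-24, read 3.66 and 2.83 with PFJ, against 3.24 and 2.96 in controls, a difference of 0.15 (SE 0.35). ND-B14.5AL, a copy of ND-B14.5A, read 4.20 and 3.92 with PFJ, against 4.07 and 3.67 in controls, a difference of 0.19 (SE 0.23). In all 5 duplicated genes replicate 1 was higher than replicate 2 in both diets, an order that 29.3% of all genes and 4 of the other 28 members had (14.3%). Those 4 were ND-SGDH, ND-19, ND-13A and ND-MWFE. Outside the members, 5 of 6 mitochondrially encoded complex I genes (83.3%) and 5 of 9 complex I assembly factors (55.6%) had this order too. Of the 19 testis markers, 18 had the same order, and its size was larger there, with a median gap of 0.78 within PFJ and 2.20 within controls, against 0.48 and 0.41 for the duplicated genes. The highest array differed, being control replicate 1 for 12 of the 19 testis markers but for only 1 of the 5 duplicated genes. For the other 4 duplicated genes it was PFJ replicate 1. The part of testis RNA in these values was not tested.

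In 18 of the other 28 members (64.3%) control replicate 1 was higher than control replicate 2 while PFJ replicate 2 was higher than PFJ replicate 1, an order that 16.0% of all genes and 12 of the 13 muscle markers had. Among the 15 supernumerary subunits of the membrane arm it was 11 (73.3%), and among the 8 of the peripheral arm it was 4. The order was not particular to complex I. Of the 29 genes of complexes III to V whose symbols do not end in L or L2, 15 had it (51.7%). ND-B18, ND-B17.2, ND-42 and ND-PDSW showed it with the widest gaps, between 0.73 and 0.94 within PFJ. The muscle list had a median gap of 0.65 within PFJ and 0.90 within controls. Muscle is rich in mitochondria, and the part of muscle RNA in the complex I values was not tested. In pooled tissue, fewer cells of a type and less RNA per cell cannot be told apart. Midgut markers mostly had the opposite order in controls, with control replicate 2 the higher, and 9 of 12 had replicate 2 higher in both diets, as did 3 of the 28 members.

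**Figure D3:**
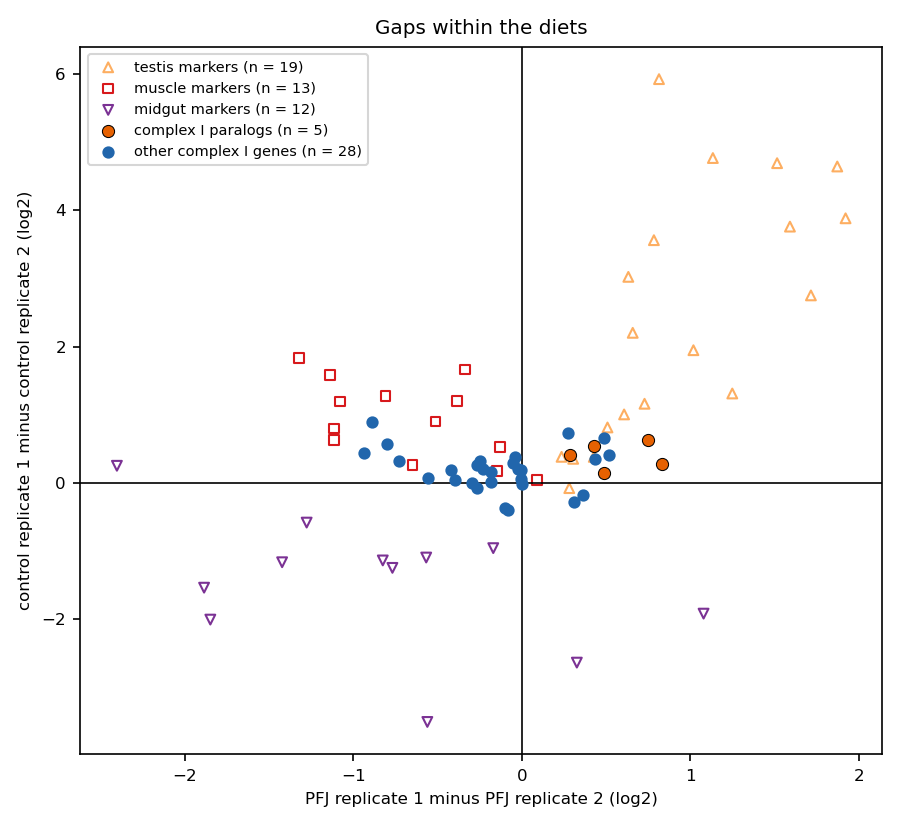
Each point is a gene, placed by the log2 gap between PFJ replicates (across) and between control replicates (up), for 5 complex I paralogs, 28 other complex I genes and markers of testis, muscle and midgut. The paralogs lie in the upper right with 18 of 19 testis markers and 4 of the other complex I genes, and 18 of the other complex I genes lie in the upper left with 12 of 13 muscle markers.

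The membrane core of complex I is encoded in mitochondrial DNA, and 6 of its 7 genes had a row of their own. All 6 differences were above 0, with a median of 0.76, but none passed the adjusted test. ND2 read 9.26 and 8.79 with PFJ, against 8.28 and 8.04 in controls, a difference of 0.86 (SE 0.24, unadjusted p 0.0232 and adjusted p 1 by limma). ND3 read 4.94 and 4.15 with PFJ, against 3.75 and 2.69 in controls, the largest difference of the 6 at 1.32 (SE 0.49). For ND2 and ND3 the groups did not overlap.

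ND4L also had its PFJ arrays above its control arrays, at 7.93 and 8.06 with PFJ, against 7.80 and 6.85 in controls, a difference of 0.67 (SE 0.37). This separation was thus seen in 3 of the 6 genes, against 15.5% of all genes. ND6 overlapped between diets, at 6.62 and 6.08 with PFJ, against 6.12 and 4.86 in controls, a difference of 0.86 (SE 0.51). ND1 and ND5 were nearly level. ND1 read 6.73 and 6.50 with PFJ, against 6.76 and 6.34 in controls, and ND5 read 11.38 and 11.12 with PFJ, against 11.23 and 10.94 in controls. Their differences were 0.06 (SE 0.23) and 0.17 (SE 0.21). In all 6 genes control replicate 2 was the lowest array. Mitochondrial genes are cut from long shared precursors, so the 6 complex I genes are not independent measurements. In flies ND2, ND3 and ND6 lie on the strand opposite to ND1, ND4, ND4L and ND5.

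**Figure D4:**
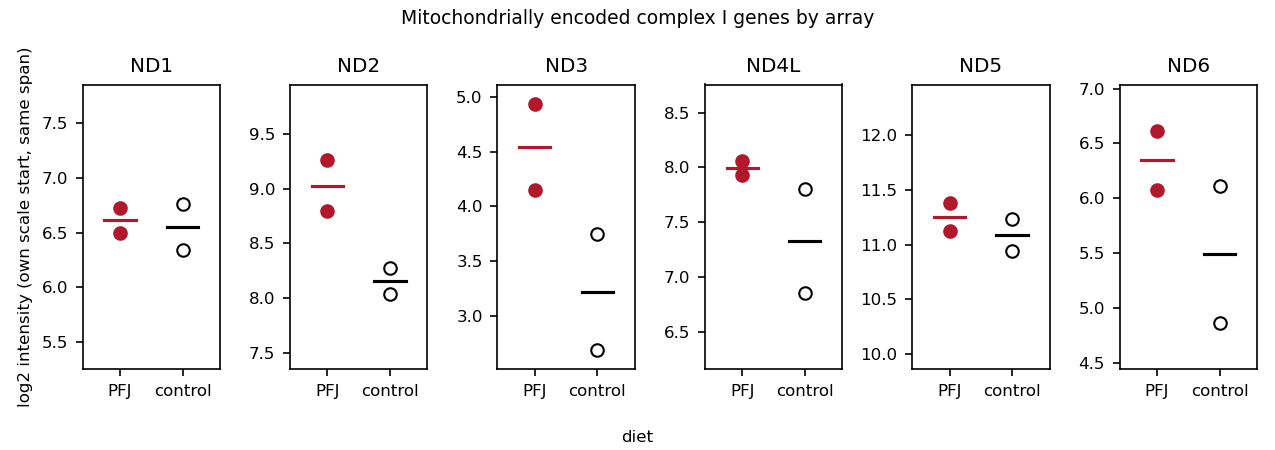
Points are the log2 intensities of the 6 mitochondrially encoded complex I genes on each array, PFJ to the left of control, and lines are group means. Each panel starts at its own level but spans the same log2 range, and control replicate 2 is the lowest point in every panel.

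The 3 nuclear complex I subunits measured under other symbols also had differences above 0. NdufV3 read 3.78 and 3.57 with PFJ, against 3.49 and 3.21 in controls, without overlap, and NdufA3 and NP15.6 overlapped, at differences of 0.24 (SE 0.33) and 0.25 (SE 0.28). The 9 complex I assembly factors had 5 differences above 0 and 4 below, with a median of 0.07, and 0 passed the test in either direction. CIA30, the fly NDUFAF1, differed by 0.00 (SE 0.16). The fly counterpart of ECSIT read 3.42 and 2.99 with PFJ, against 3.55 and 3.43 in controls, and was the one factor whose PFJ arrays both lay below both control arrays. CG17726 read 3.37 and 3.18 with PFJ, against 3.09 and 3.08 in controls, and was the one with both above.

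Beside complex I, the 43 genes of complexes III to V had 33 differences above 0 and a median of 0.16, with both PFJ arrays above both control arrays for 11 (25.6%, against 15.5% of all genes) and below for 0 (against 13.1%). Control replicate 2 was the lowest array for 28 of them (65.1%). The 14 of these genes whose symbols end as copies, in L or L2, had 12 with replicate 1 higher in both diets, as in the 5 copies of complex I. Complex II had 5 measured genes. SdhBL, a duplicated gene of its iron-sulfur subunit, read 6.87 and 5.33 with PFJ, against 6.91 and 2.84 in controls, while SdhB itself read 6.79 and 7.45 with PFJ, against 6.82 and 7.10 in controls. The copy was far lower in control replicate 2 than on any other array, and SdhB was not. The 71 mitochondrial ribosomal protein genes had a median of 0.03, close to that of all genes, with 37 differences above 0, and control replicate 2 was the lowest array for 21 of them (29.6%). The difference between complex I and these other lists was not tested.

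Regulators of mitochondrial genes had differences below 0, all 4 of those measured. TFAM, which packages and transcribes mitochondrial DNA, read 5.58 and 5.59 with PFJ, against 5.80 and 5.80 in controls, a difference of -0.22 (SE 0.16). Ets97D, the fly GABP alpha subunit, read 4.46 and 4.70 with PFJ, against 4.95 and 5.04 in controls, a difference of -0.41 (SE 0.18, unadjusted p 0.0843 by limma). In both genes the groups did not overlap. ERR, the oestrogen-related receptor, read 3.33 and 3.60 with PFJ, against 3.49 and 4.26 in controls, and ewg, the fly NRF-1, differed by -0.12 (SE 0.20). None passed the adjusted test. Control replicate 2 was the highest array in each, though for TFAM the control arrays were level at 5.80.

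**Figure D5:**
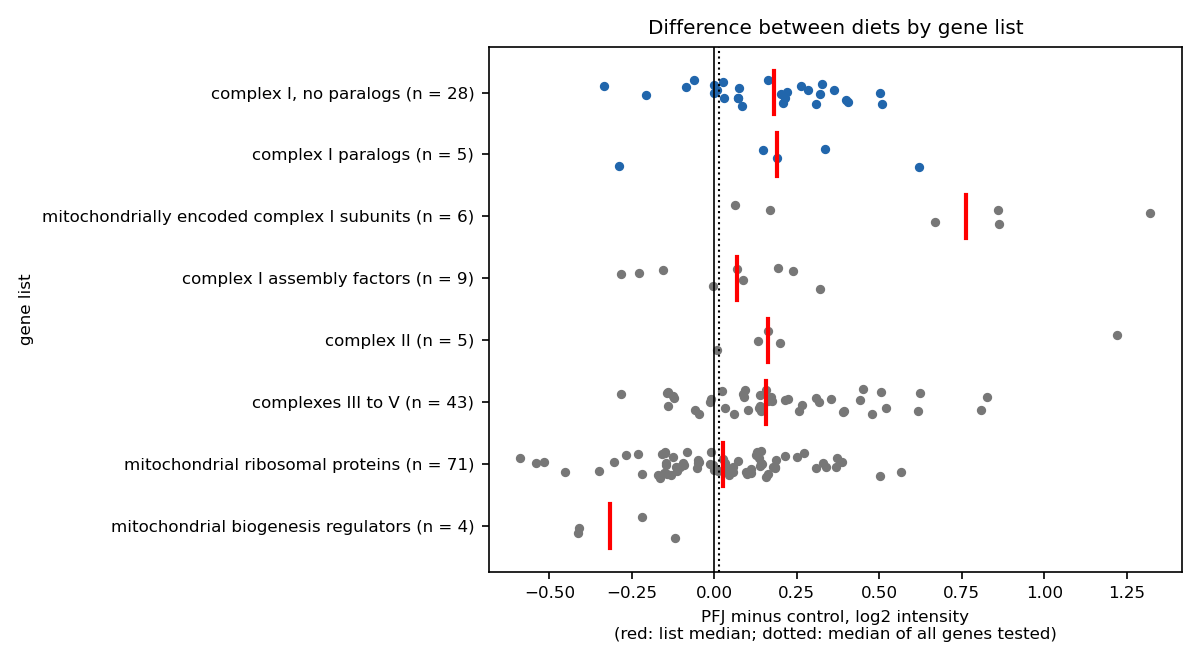
Points are the differences of PFJ minus control in log2 intensity for each gene of 8 lists, red bars are list medians and the dotted line is the median of all genes tested. The median is 0.18 for complex I without paralogs and 0.19 for its paralogs, and 0.76 for its mitochondrially encoded subunits. It is 0.16 for the nuclear genes of complexes III to V and 0.03 for mitochondrial ribosomal proteins.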

How the data were processed

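Per the labels, each of the 4 arrays carried biotin-labelled cDNA made from fat body RNA of 10 larvae, and the arrays of a diet are separate pools. No source says that pools came from separate cultures, so p-values measure only the spread between these pools. Per the submitters' processing notes, the tools behind the deposited log2 intensities were RMA and Affymetrix Expression Console 1.4.0.38. RMA is meant to give arrays like distributions, which hides changes common to most genes. The medians of all rows still differed, at 4.08 and 4.00 in PFJ replicates 1 and 2. They were 4.09 and 3.93 in control replicates 1 and 2. Values ran from 1.36 to 12.7. Coordinates are left out because the build is not given in the sources used here.

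Of 16322 rows, 13441 had 1 gene symbol, 555 several and 2326 none in the platform table. For 37 genes the brightest of several rows was kept. limma 3.58.1 in R 4.3.3 (lmFit, eBayes, two-sided, no covariate) compared PFJ with control over 13402 genes, with Benjamini-Hochberg adjustment and a threshold of 0.05. A check on simulated data required only that the median estimates lay near the changes put in. It set no condition on how many changed genes the adjusted test called. The number of arrays limits the precision.

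The members and gene lists were chosen with earlier results of these data known. Values per array were printed for core subunits, paralogs, the 10 other members with the smallest p, the 3 with the largest control gap and the 3 with the smallest range. NdufA3, NdufV3 and NP15.6 were added from RefSeq synonyms after the data were seen. Arms follow the vertebrate complex. A ranking of genes by likeness to the members was left out, since 4 arrays are too few for a correlation. The alternatives were quantile normalisation again, median centring, 2 filters on dim genes, a variance trend, a replicate block, each array left out, all rows and the mean of a gene's rows.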

Additional observations from a re-analysis of the deposited data

Results flagged for a closer look

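A row that the platform table assigns to ND4 and ND4L together was outside the genes tested and had both PFJ arrays above both control arrays. It read 9.09 and 8.67 with PFJ, against 8.61 and 8.17 in controls, a log2 difference of 0.49 that was not tested.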

How the results depend on the processing

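Under all 12 other settings limma's adjusted test called 0 members and 0 genes, with the smallest adjusted p at 0.310 (without control replicate 1) and between 192 and 945 genes at an unadjusted p under 0.05. The count of members higher at an unadjusted p under 0.05, 1 in the reported fit, was 0 with a variance trend, with genes at or above the 25th percentile, with genes at or above the median and with median centring, 2 with quantile normalisation repeated, and 0 to 1 on leaving out each array. ND-20L took the place of ND-MLRQ as that 1 member with the replicate block and without PFJ replicate 2. The median difference of the members was 0.19 and moved between 0.061 (without control replicate 2) and 0.29 (without control replicate 1) on leaving out each array, in which a lone array is assumed to vary like the other diet's. It was 0.14 with quantile normalisation repeated and with median centring, where 25 and 23 of 33 members were above 0 (75.8% and 69.7%, against 45.6% and 44.1% of all genes), and 0.18 without the 5 paralogs, an alternative added after the data were seen. The 9 members whose groups did not overlap kept their sign in all 106 values computed under other settings, but most of this was fixed in advance. Leaving out an array cannot turn the sign of such a gene. Among the other settings, only median centring and repeated quantile normalisation changed the estimates. Of the 15 other members with printed array values, whose groups overlapped, 11 turned sign on leaving out an array, so this contrast is largely built in. The shared replicate numbers are not stated to pair arrays. Over all genes the gaps between replicates 1 and 2 of the 2 diets correlated at 0.34, and over the members at 0.00. With the replicate number as a block, 0 members were called and 547 genes had an unadjusted p under 0.05, against 373 without it. The filters kept 31 and 22 of the 33 members, and the one at the 25th percentile left out ND-B8 and ND-B12. No signal over background was available, which limits statements on the dimmest members.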
